A study of Mus musculus with 4 samples.

Results

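The genes described here are the *Vegf* and angiopoietin signals of the palatal mesenchyme and their main receptors. They are the *Vegf* family ligands *Vegfa*, *Vegfb*, *Pgf*, *Vegfc* and *Figf*, the angiopoietins *Angpt1* and *Angpt2*, and the receptor genes *Flt1*, *Kdr* and *Tek*. They were taken by symbol, and the list was chosen with earlier results of these data known. They make up 10 of the 22086 genes with a usable estimate in the tables, or 16 of 28107 transcript entries. RNA was sequenced from RFP+ cells sorted from microdissected palatal shelves of 4 littermate embryos at E13.5, 1 library per embryo. The control arm held 1 *Osr2RFP/+* embryo with both *Foxf2* alleles intact, the wild-type embryo (*Foxf2+/+*), and 1 *Foxf2+/-Osr2RFP/+* embryo, the heterozygote. The mutant arm held 2 *Foxf2-/-Osr2RFP/+* embryos, called mutants, in which *Foxf2* was lost from the whole embryo and not from the mesenchyme alone. All 4 embryos were of mixed background and carried 1 *Osr2RFP* knock-in allele, which marks the cells that express *Osr2*. Each control genotype therefore had no replicate.

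Vegf ligands are secreted proteins that make blood and lymphatic vessels grow. Vegfa acts on endothelial cells through Kdr and Flt1, whereas Vegfb and Pgf bind Flt1. Vegfc and Vegfd, the product of *Figf*, act through Flt4 and are best known for the growth of lymphatic vessels. Angpt1 stabilizes vessels by activating the receptor Tek, and Angpt2 can oppose it. In most embryonic tissues the ligands come from mesenchyme or other supporting cells and the receptors lie on endothelium, so a sorted mesenchymal population is a place to look for the sending side of the pathway.

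The values are FPKM, fragments scaled to transcript length and to the size of the library, summed over the entries of a gene. FPKM can be compared between genes because it is per length. The relative depth of the libraries, from the ratio of coverage to FPKM, to that of the wild-type library was 1.19 for the heterozygote and 1.02 and 1.14 for the mutants. The number of reads behind a value is unknown. *Foxf2* itself measured 85.4 FPKM in the wild-type embryo, 45.1 in the heterozygote and 1.41 and 2.28 in the mutants, the order that the labelled genotypes give (log2 difference -5.03, limma adjusted p = 0.0202). The 12 mesenchymal marker genes, among them *Osr2*, *Prrx1*, *Pdgfra* and *Twist1*, together held between 1397 and 1600 FPKM in each embryo.

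The ligands spanned a wide range of levels, and the receptors were near 0. *Vegfb* was the highest of the 10 genes in every embryo, with a mean over the 4 embryos of 39.6 FPKM. *Vegfa* followed at 11.6 FPKM and *Angpt1* at 9.37 FPKM. Below them were *Figf* at 5.28, *Vegfc* at 4.62 and *Pgf* at 3.42 FPKM, whose values in single embryos overlapped. *Angpt2* was at 0.604 FPKM, and *Kdr*, *Tek* and *Flt1* were at 0.188, 0.106 and 0.049 FPKM, with single embryos of these 3 overlapping. The order of *Vegfb*, *Vegfa* and *Angpt1* was the same in each of the 4 embryos.

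**Figure D1:**
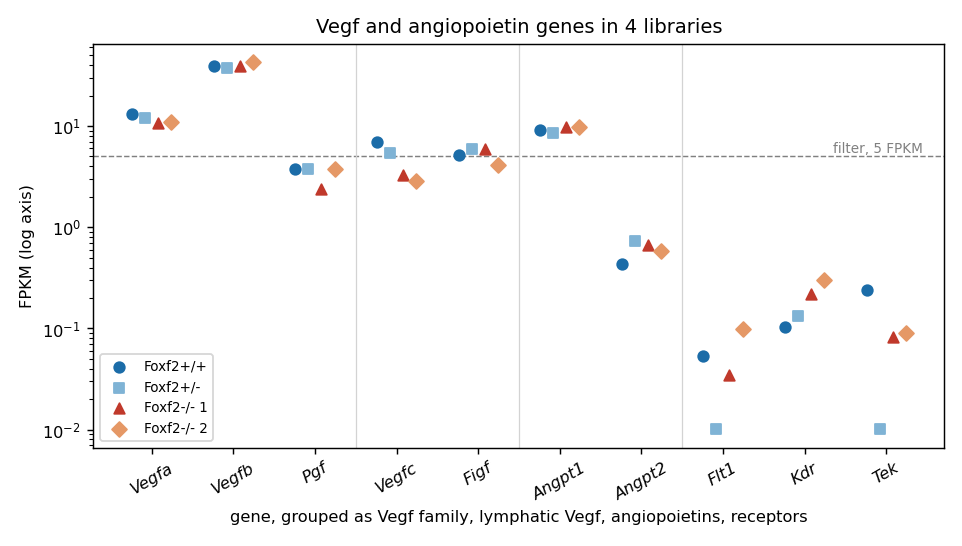
FPKM of the 10 genes in each of the 4 embryos on a log axis, 1 point per embryo, with the filter of 5 FPKM as a dashed line. *Vegfb* lies between 37.3 and 42.6 FPKM, the *Vegfc* points of the *Foxf2-/-* embryos lie below those of both controls, and all points of *Flt1*, *Kdr* and *Tek* lie below 0.3 FPKM.

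To ask which of these signals differed after loss of *Foxf2*, the mutants were compared with the controls. A gene was tested when it reached 5 FPKM in at least 1 embryo, and 5 of the 10 genes did so: *Vegfa*, *Vegfb*, *Vegfc*, *Figf* and *Angpt1*. None of the 5 passed limma with Benjamini-Hochberg adjustment over all 7698 genes tested, against a background of 0.338% of those genes called in either direction and 0.143% lower in the mutants. At an unadjusted p under 0.05, 1 of the 5 passed, against 12.2% of all genes tested. By the second criterion, a mutant mean more than 1.5-fold from each control in the same direction, 1 of the 5 genes was called, *Vegfc*. *Vegfc* reached the filter through the controls alone. The background of that criterion was 2.39% of the genes tested in either direction and 0.844% in the lower one. With a filter of 1 FPKM, the criterion called 352 of 11874 genes, 165 of them lower. Another background was the 1777 tested genes with an entry of at least 200 bases and a mean FPKM within 1.5-fold of that of *Vegfc*. Of these the criterion called 1.46% in either direction. Another setting kept only entries of at least 200 bases whose estimate the program marked as OK in every embryo. It removes none of the 16 entries of these genes. There the background of the criterion was 0.637% in either direction and 0.19% in the lower one, and limma called 0.0949% of genes. By order alone, 3 of the 5 genes had mutants and controls that did not overlap, against 46.5% of all genes tested. With 2 embryos against 2, the smallest p-value of an exact permutation test is 0.333.

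*Vegfc*, the ligand best known for lymphatic growth, was at 6.95 FPKM in the wild-type embryo, 5.37 in the heterozygote, and 3.30 and 2.87 in the mutants. Both mutants were therefore below both controls, and the heterozygote lay between them and the wild-type embryo. The mean was 6.16 ± 1.11 FPKM (SD, n = 2) in the controls and 3.08 ± 0.306 FPKM (SD, n = 2) in the mutants, which is 50.04% of the control mean. On the log2(FPKM + 0.1) scale the difference was -0.97 with a standard error of 0.19, and the limma p-value was 0.00395 before and 0.374 after adjustment. The mutant mean was 2.22-fold below the wild-type value and 1.72-fold below the heterozygote. In the bulk RNA of sorted cells, fewer *Vegfc*-expressing cells and less *Vegfc* RNA per cell cannot be told apart.

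The spread between embryos puts this difference in scale. For *Vegfc* the second mutant minus the first was -0.20 on the log2 scale, and the heterozygote minus the wild type was -0.36. The same log2 differences were taken over the 1777 tested genes with an entry of at least 200 bases and a mean FPKM within 1.5-fold of *Vegfc*. Their SD was 0.288 for the mutant pair and 0.257 for the control pair. Of all genes tested, 81 had a limma p-value as small as that of *Vegfc* or smaller, and 114 had a difference at least as far in the lower direction. *Vegfc* reached the filter of 5 FPKM through the controls alone. When the filter was lowered to 1 FPKM, which *Vegfc* exceeded in all 4 embryos, the adjusted p-value from limma was 0.357. With only entries of at least 200 bases in the fit it was 0.104, the lowest of the 14 alternatives, and the highest was 0.803, with the wild-type embryo left out.

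**Figure D2:**
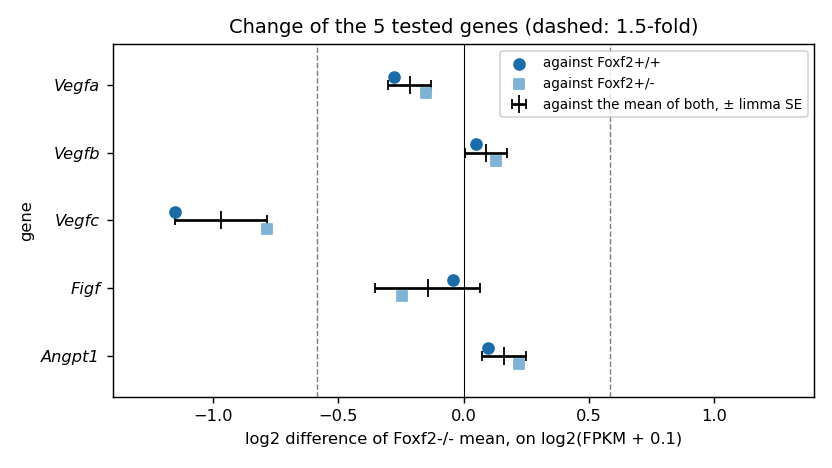
Log2 difference between the *Foxf2-/-* mean and the *Foxf2+/+* embryo (circles), the *Foxf2+/-* embryo (squares) and the mean of both controls (bars, with the limma standard error) for the 5 tested genes. *Vegfc* lies beyond the dashed 1.5-fold line against both controls, at -1.15 and -0.79, and the other 4 genes lie within the lines.

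*Vegfc* is a single RefSeq entry of 1881 bases on the plus strand of chromosome 8 of mm9, from 55162886 to 55271808. The sequence just before its start is shown because *Vegfc* had the largest log2 difference of the 5 tested genes and the missing factor is a forkhead protein. These 250 bases, from RefSeq (start table of GRCm38.p6), match chr8:55162636-55162885 of mm9 exactly and are 71.6% G or C.
*Vegfc* upstream: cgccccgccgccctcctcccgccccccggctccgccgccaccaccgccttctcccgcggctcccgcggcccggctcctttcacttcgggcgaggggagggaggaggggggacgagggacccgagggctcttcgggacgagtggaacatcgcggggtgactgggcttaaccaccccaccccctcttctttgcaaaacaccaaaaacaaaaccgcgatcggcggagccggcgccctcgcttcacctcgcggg
The forkhead motif was searched in its forms GTAAACA and ATAAACA, on both strands, in windows of 300 bases that run from 250 before to 50 after a start. Neither form occurred in the window of *Vegfc* or in those of the other 7 genes with a listed start (*Angpt1* and *Angpt2* had none listed). Over all 32851 windows, 3.65% held the first form and 4.6% the second. An empty window says only that these letters are not in it.

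*Figf*, which encodes Vegfd, the closest relative of Vegfc, was at 5.12 FPKM in the wild-type embryo, 5.90 in the heterozygote, and 5.95 and 4.14 in the mutants. The groups overlapped. The mean was 5.51 ± 0.555 FPKM in the controls and 5.05 ± 1.28 in the mutants (SD, n = 2 each), a log2 difference of -0.14 (limma, adjusted p = 0.787). Within an embryo, *Vegfc* stood at 1.36 times the FPKM of *Figf* in the wild-type embryo and 0.910 times in the heterozygote. In the mutants the ratio was 0.554 and 0.692, so *Figf* was the higher of the pair in 3 of 4 embryos. *Figf* lies on the plus strand of the X chromosome, from 160811480 to 160840579.

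Vegfc and Vegfd are secreted as precursors and cut by proteases, so the genes of this maturation step were examined as a list of 11. Of these, 4 passed the filter. limma called 0 of the 4 at an adjusted threshold of 0.05, as did the 1.5-fold criterion, and 0 had an unadjusted p under 0.05. Over all genes tested these shares were 0.338%, 2.39% and 12.2%. Without overlap, 2 of the 4 (*Pcsk5* and *Plat*) were higher in the mutants and 0 lower, beside 8.76% and 37.7% of all genes tested. The median log2 difference of the 4 was 0.11, beside -0.08 over all genes tested. *Adamts3*, the protease that activates Vegfc, measured 4.196 and 3.45 FPKM in the control pair, against 3.21 and 3.09 in the mutant pair. *Ccbe1*, its cofactor, was singled out after its values were seen and measured 0.976 and 1.04 FPKM in the control pair, against 0.986 and 1.04 in the mutant pair. The proprotein convertase genes *Furin* and *Pcsk5* had log2 differences of -0.003 and 0.17 (limma, adjusted p = 0.996 and 0.499). *Ctsd* and *Plat*, the remaining tested genes of the list, had log2 differences of 0.05 and 0.27 (limma, adjusted p = 0.901 and 0.572).

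*Vegfa*, the main growth signal for blood vessels, was at 13.1 FPKM in the wild-type embryo, 11.95 in the heterozygote, and 10.6 and 10.9 in the mutants. The mutants were below both controls, with means of 12.5 ± 0.808 FPKM in the controls and 10.8 ± 0.201 in the mutants (SD, n = 2 each). The log2 difference of -0.21 did not pass limma (standard error 0.09, adjusted p = 0.415). Such an order without overlap in the lower direction was common in these libraries, with 37.7% of all genes tested, against 8.76% in the higher direction. After rescaling by median ratios these shares were 21.9% and 21.2%, and *Vegfa* was still below both controls, with a log2 difference of -0.13.

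Splice forms of *Vegfa* differ in coding exons that hold the heparin-binding part of the protein, and the 6 entries of the gene, on the minus strand of chromosome 17 from 46153943 to 46169326, differ by these exons and by their start. Vegf188 carries both exons shown next, Vegf164 carries the longer one and Vegf120 neither. The difference in length between the entries equals the length of each exon, 72 and 132 bases. They are shown on the strand of the gene, from mm9, with the codons for lysine and arginine in capitals, since basic residues bind heparin.
*Vegfa* exon of Vegf188, minus strand of chr17:46159226-46159297: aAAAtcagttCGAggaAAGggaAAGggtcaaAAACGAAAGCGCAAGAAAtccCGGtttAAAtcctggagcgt
*Vegfa* exon of Vegf164 and Vegf188, minus strand of chr17:46157940-46158071: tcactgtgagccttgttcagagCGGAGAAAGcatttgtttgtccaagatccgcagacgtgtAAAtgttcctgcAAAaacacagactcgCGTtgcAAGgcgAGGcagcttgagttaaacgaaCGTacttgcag
The shorter exon has 12 such codons among 23 whole codons, and the longer one 9 among 43.

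Vegf164 was the leading form of *Vegfa* in all 4 embryos. Its share of the FPKM of the gene was 86.3% in the wild-type embryo, 66.9% in the heterozygote, and 80.8% and 69.3% in the mutants. Vegf120 held 13.7% and 29.3% in the controls and 17.3% and 26.6% in the mutants. Vegf188 held at most 4.08% in any embryo. The shares of the mutants lay within the range of the controls for Vegf164 and Vegf120. Entries of a gene share most of their reads, so each split is an estimate of the authors' program and was not tested.

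By start, 3 entries of *Vegfa* begin at the first exon and 3 begin inside the gene. The entries from the first exon summed to 7.52 and 6.57 FPKM in the control pair, against 7.32 and 7.21 in the mutant pair, whose values lay between those of the controls. The entries with an inner start summed to 5.58 and 5.39 FPKM in the control pair, against 3.31 and 3.70 in the mutant pair. The inner entries thus took 42.6% and 45.1% of the gene in the controls and 31.1% and 33.9% in the mutants. As with the splice forms, this split is an estimate from shared reads and was not tested.

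**Figure D3:**
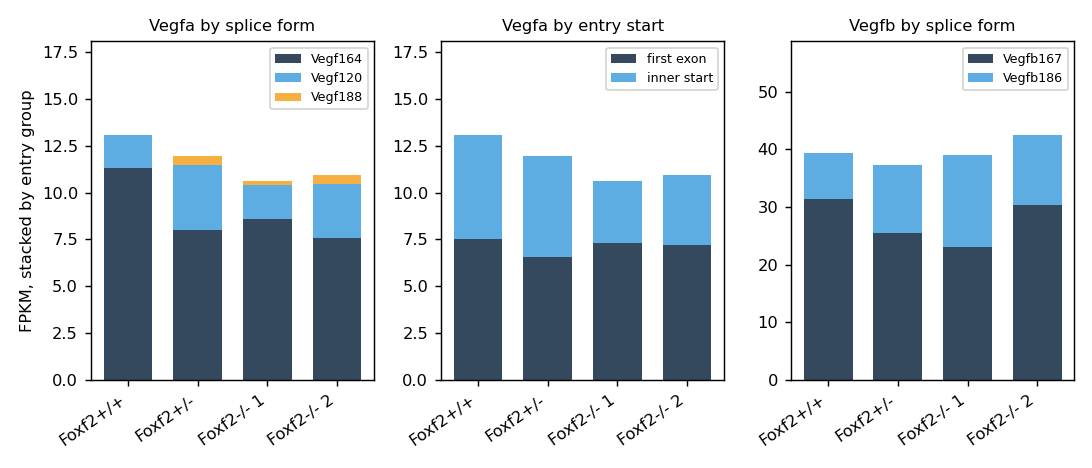
FPKM of *Vegfa* stacked by splice form (left) and by entry start (middle), and of *Vegfb* by splice form (right), 1 bar per embryo from 0. Vegf164 and Vegfb167 take the largest part of every bar, and the inner-start part of *Vegfa* is smaller in the *Foxf2-/-* bars (3.31 and 3.70 FPKM) than in the control bars (5.58 and 5.39 FPKM).

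*Vegfb*, a ligand of Flt1 that is linked to heart and muscle more than to vessel growth, was at 39.4 and 37.3 FPKM in the wild-type embryo and the heterozygote and at 39.0 and 42.6 FPKM in the mutants. The groups overlapped, with means of 38.3 ± 1.52 FPKM in the controls and 40.8 ± 2.496 in the mutants (SD, n = 2 each). The log2 difference was 0.09 (limma, adjusted p = 0.671). The gene lies on the minus strand of chromosome 19, from 7056962 to 7062141. Its splice forms differ by 101 coding bases, present in the freely diffusing Vegfb186 and absent from the heparin-binding Vegfb167. The stretch is shown in the same way and holds 2 codons for lysine or arginine among 33.
*Vegfb* stretch of Vegfb186, minus strand of chr19:7059986-7060086: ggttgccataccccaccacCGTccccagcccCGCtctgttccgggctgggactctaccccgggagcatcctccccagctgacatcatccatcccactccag
Vegfb167 took 79.5% of the FPKM of the gene in the wild-type embryo, 68.4% in the heterozygote, and 59.1% and 71.1% in the mutants. It was the larger form in every embryo, and the shares of the controls and mutants overlapped.

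*Pgf*, another ligand of Flt1, stayed below the filter, at 3.76 FPKM in both controls and at 2.36 and 3.79 FPKM in the mutants. One mutant was thus lower than the controls and the other level with them. The gene lies on the minus strand of chromosome 12, from 86507591 to 86518235. Summed over the 5 *Vegf* family ligands, the FPKM was 68.3 and 64.3 in the controls and 61.3 and 64.3 in the mutants. *Vegfc* made a small part of this sum, between 2.87 and 6.95 FPKM.

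*Angpt1*, the activating ligand of Tek, was at 9.23 FPKM in the wild-type embryo, 8.47 in the heterozygote, and 9.89 in each mutant. Both mutants were above both controls, with means of 8.85 ± 0.537 FPKM in the controls and 9.89 ± 0.00177 in the mutants (SD, n = 2 each). The log2 difference of 0.16 did not pass limma (standard error 0.09, adjusted p = 0.497), and 8.76% of all genes tested had such an order in this direction. *Angpt2* measured 0.431 and 0.723 FPKM in the control pair, against 0.675 and 0.588 in the mutant pair, with overlap. *Angpt1* exceeded *Angpt2* by 21.4 and 11.7 times in the controls and 14.7 and 16.8 times in the mutants. Both lie on minus strands, *Angpt1* on chromosome 15 from 42256271 to 42508341 and *Angpt2* on chromosome 8 from 18691337 to 18741551.

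**Figure D4:**
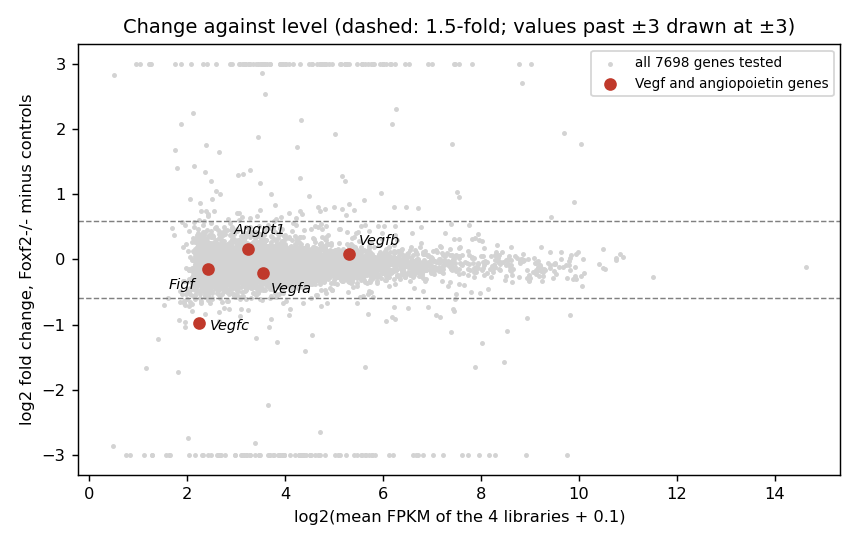
Log2 fold change of the *Foxf2-/-* embryos against the controls, by mean level, for all 7698 genes tested (grey) and the 5 tested *Vegf* and angiopoietin genes (red), with 1.5-fold as dashed lines. *Vegfc* lies at -0.97, below the dashed line, the other 4 lie between -0.21 and 0.16, and 184 genes past 3 are drawn at the edges.

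The receptor genes were near 0 in all 4 embryos. *Kdr*, the main signaling receptor for Vegfa, measured 0.104 and 0.132 FPKM in the control pair, against 0.219 and 0.299 in the mutant pair. Both mutants were above both controls, but all values were far below the filter, and the log2 difference moved from 0.17 to 1.06 between pseudocounts of 1 and 0.01. *Flt1* measured 0.0534 and 0.0101 FPKM in the control pair, against 0.0348 and 0.0979 in the mutant pair. *Tek* measured 0.241 and 0.0102 FPKM in the control pair, against 0.0832 and 0.0899 in the mutant pair, so that the controls lay on either side of the mutants. The 3 receptors together reached between 0.236% and 0.757% of the summed FPKM of the 5 *Vegf* ligands. *Flt1* and *Kdr* lie on the minus strand of chromosome 5, from 148373772 to 148537564 and from 76329299 to 76374453, and *Tek* on the plus strand of chromosome 4, from 94405991 to 94541630. *Flt4*, the receptor of Vegfc, was singled out after its values were seen and was at most 0.0497 FPKM in any embryo.

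The markers of blood endothelium were low as well, and those that define the cell type are named here whatever their level. Of 22 marker genes, 17 were below 1 FPKM in every embryo, and *Cldn5* was listed at 0 in all 4. *Pecam1* was at most 0.0962 FPKM and *Tie1* at most 0.0130 FPKM. *Cdh5* measured 0.0456 and 0.0236 FPKM in the control pair, against 0.116 and 0.236 in the mutant pair, and *Emcn* was listed at 0 and at 0.346 FPKM in the controls and at 0.450 and 0.812 in the mutants. The summed list ran from 22.2 to 23.0 FPKM in the controls and from 23.5 to 31.9 FPKM in the mutants, most of it from *Ramp2* and *Cd34*. Like *Kdr*, 6 of the 22 markers (*Cdh5*, *Emcn*, *Egfl7*, *Ramp2*, *Icam2* and *Eltd1*) were above both controls in both mutants, whereas 1 (*Erg*) was below them and 15, *Pecam1*, *Tie1* and *Cldn5* among them, overlapped. Only 2 of the 22 passed the filter. Over all 22086 genes without a filter, 9.41% were higher in the mutants without overlap and 22.6% lower. The part of these markers in the *Kdr* values was not tested.

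Other cell types that could carry ligands or receptors were checked by their markers. Of 4 lymphatic markers, *Prox1*, *Lyve1* and *Flt4* were below 1 FPKM in every embryo, and the fourth, *Pdpn*, measured 6.74 and 5.64 FPKM in the control pair, against 8.12 and 8.86 in the mutant pair. The 10 genes of pericytes and smooth muscle summed to between 55.1 and 60.6 FPKM, most of it from *Pdgfrb* at 36.4 to 40.6 FPKM. Of the 10, 4 (*Kcnj8*, *Notch3*, *Acta2* and *Tagln*) were higher in the mutants without overlap. The gene *Cnn1* was lower, and 5, *Pdgfrb* among them, overlapped. Only 2 of the 10 passed the filter. Without a filter, 9.41% of all 22086 genes were higher and 22.6% lower without overlap. The 11 genes of macrophages summed to between 22.2 and 33.4 FPKM, and the 8 of epithelium to between 7.38 and 9.12 FPKM. Markers of glia and of skeletal muscle summed to at most 1.71 and 1.65 FPKM. The 5 markers of platelets summed to 5.11 and 6.85 FPKM in the control pair, against 1.71 and 4.07 in the mutant pair, with *Pf4*, which passed the filter through the heterozygote alone, past 1.5-fold against both controls (log2 difference -1.72, limma adjusted p = 0.410). This sum was mostly *Pf4*. Of the 5 markers 2 (*Pf4* and *Itga2b*, the latter at most 0.167 FPKM) were lower in the mutants without overlap, 1 (*Ppbp*) was higher, and 2 (*Gp9* and *Gp1bb*) overlapped. Over all 22086 genes without a filter, 22.6% were lower without overlap and 9.41% higher. The part of these markers in the *Vegfc* values was not tested. The 10 genes of red blood cells summed to 297 FPKM in the wild-type embryo, 1839 in the heterozygote, and 1598 and 4377 in the mutants. Of the 7 tested, *Hba-a2*, *Hba-x* and *Hbb-b1* were past 1.5-fold higher, beside 1.55% of all genes tested. *Hba-a2* and *Hbb-b1* have near-identical copies that can share reads. *Hba-x* overlapped between the arms, at 674 FPKM in the heterozygote and 654 in the first mutant. limma called 0 of the 7 tested (1, *Hbb-b1*, at an unadjusted p under 0.05). The red cell sum was lowest in the embryo with the highest *Vegfc* and highest in the embryo with the lowest *Vegfc*. The embryos between them did not keep this order. The heterozygote had a higher red cell sum than the first mutant and also more *Vegfc*, 5.37 against 3.30 FPKM. The part of red cells in the *Vegfc* values was not tested.

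**Figure D5:**
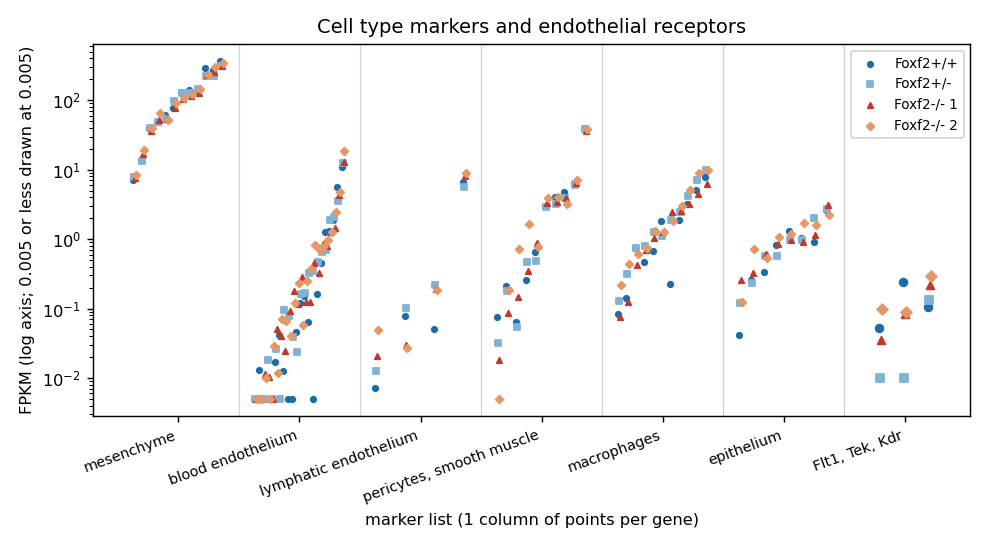
FPKM of each marker gene (1 column of points per gene) for 6 cell types, and of *Flt1*, *Tek* and *Kdr* at the right, in the 4 embryos on a log axis. The 12 mesenchymal markers lie above 7 FPKM in every embryo, 17 of the 22 markers of blood endothelium lie below 1 FPKM, and the receptors lie below 0.3 FPKM.

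The other receptors, modifiers and oxygen sensors of the pathway showed no call. Of 37 such genes 21 passed the filter, and limma called 0 of them, as did the 1.5-fold criterion, while 2 had an unadjusted p under 0.05 (*Thbs1* and *Ldb2*), against 12.2% of all genes tested. At most they reached log2 differences of -0.52 and 0.49, and their median was -0.003, beside -0.08 over all genes tested. Without overlap, 5 of the 21 were lower and 4 higher in the mutants, beside 37.7% and 8.76% of all genes tested. Rescaling by median ratios changed these shares of all genes tested to 21.9% and 21.2%, but the 21 were not counted again after it. The co-receptor *Nrp2* measured 18.8 and 16.8 FPKM in the control pair, against 16.2 and 18.4 in the mutant pair (log2 difference -0.05, limma adjusted p = 0.876). The co-receptor *Nrp1* was singled out after its values were seen. It measured 18.4 and 15.3 FPKM in the control pair, against 13.2 and 14.8 in the mutant pair, without overlap (log2 difference -0.26, limma adjusted p = 0.462). *Hif1a*, the oxygen-regulated activator of *Vegfa*, measured 19.2 and 18.03 FPKM in the control pair, against 17.1 and 17.5 in the mutant pair (log2 difference -0.11, limma adjusted p = 0.593), and its partner *Arnt* was at 20.2 and 20.3, and at 18.1 and 19.0 FPKM. The remaining named members, *Itgb1*, *Egln1* and *Itga5*, had log2 differences between -0.04 and 0.04.

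The *Vegfa* values were set beside other genes that respond to low oxygen. Of 22 such genes 11 passed the filter, limma called 0 of the 11, and the 1.5-fold criterion called 0, while 1 (*P4ha2*) had an unadjusted p under 0.05, against 12.2% of all genes tested. Their median log2 difference was -0.11, beside -0.08 over all genes tested, and 4 of the 11 were lower in the mutants without overlap and 0 higher. Over all genes tested these shares were 37.7% and 8.76%, so the count of lower genes was near the background. Rescaling by median ratios changed the shares of all genes tested to 21.9% and 21.2%, but the 11 were not counted again after it. The glycolytic genes *Aldoa* and *Pgk1* were among the 4, with log2 differences of -0.31 and -0.22 (limma, adjusted p = 0.438 and 0.430). *Ldha* and the glucose transporter *Slc2a1* were at -0.02 and -0.03, and *Egln1* and *Kdm3a* at 0.04 and -0.02. Over all 22 genes of the list without a filter, 8 were lower and 2 (*Egln3* and *Hk2*) higher without overlap. Over all 22086 genes these shares were 22.6% and 9.41%. *Egln3*, below the filter, measured 0.999 and 0.983 FPKM in the control pair, against 2.17 and 1.89 in the mutant pair.

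Of 7394 tested genes whose entries reach 200 bases or more, the 5 whose profile over the 4 embryos lay closest to that of *Vegfc* were *Asb4*, *Hmga1*, *Snhg7*, *Slitrk6* and *Sbsn*. Likeness was the distance between log2(FPKM + 0.1) profiles centered on their means, and it ran from 0.236 for *Asb4* to 0.310 for *Sbsn*. *Asb4* measured 133 and 95.9 FPKM in the control pair, against 70.3 and 64.2 in the mutant pair, and *Slitrk6* was at 23.4 and 19.5, and at 12.5 and 12.7 FPKM. All 5 were highest in the wild-type embryo, and none passed limma, with adjusted p-values between 0.232 and 0.403. A profile of 4 embryos is short, and these genes were found by their values, so the likeness is a description.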

How the data were processed

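The authors aligned single-end reads from 4 libraries to mm9 with Tophat and Bowtie (version 0.12.7 per the labels) and deposited, for each embryo, an FPKM and a coverage signal per RefSeq transcript entry, in the column layout of Cufflinks. The version and options of that program were not given in the sources used here. Coverage is the estimated read depth over an entry, not scaled for library size, and its ratio to FPKM, constant within an embryo, gave the relative depth. No read counts were used, so the depth in reads is unknown. The study's own comparison used other software and a test on read numbers, which FPKM do not allow, and is not used here.

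Entries were summed by symbol, and 10 genes were left out because the program marked an estimate as failed. limma 3.58.1 (R 4.3.3, variance trend, Benjamini-Hochberg adjustment, threshold 0.05 with a change of more than 1.5-fold) was fitted on log2(FPKM + 0.1) for genes with at least 5 FPKM in at least 1 embryo. Differences of genes below the filter come from the same fit without a filter, with no test. The pseudocount understates differences of low genes. The script was tested on simulated data. The remaining steps used Python 3.11.15 (pandas 2.3.3). Positions are 1-based on mm9, and exons are from GENCODE vM1.

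The genes named were the 10 listed, *Foxf2*, and from each list the genes called and up to 6 others of the highest mean FPKM. They also include the 5 genes closest to *Vegfc*. Members and lists were chosen with earlier results of these data known. The labels do not say that replicates were independent in more than the embryo, so p-values rest on the spread between these embryos. The main fit took the *Foxf2+/+* and *Foxf2+/-* embryos as replicates of a single control arm. Any difference between these genotypes is therefore counted as spread. Alternatives varied the pseudocount, filter, scaling, entry length, limma model and embryos. The alternative with entries of at least 200 bases also kept only entries whose estimate was marked as OK in every embryo.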

Additional observations from a re-analysis of the deposited data

How the results depend on the processing

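The log2 difference of *Vegfc* stayed negative in all 14 alternatives, between -1.19 and -0.79, and no alternative gave it an adjusted p-value from limma under 0.05. *Vegfc* met the 1.5-fold criterion in all 11 alternatives that apply to it. limma called 0 of the genes it tested in each alternative, which were 10 without a filter, 6 with a filter of 1 FPKM and 5 in the others. The number past 1.5-fold against both controls was 1, except 2 without a filter on low values, where *Kdr* was added at levels of at most 0.299 FPKM. *Vegfa* kept a negative difference (-0.28 to -0.13), and *Vegfb* (0.03 to 0.17) and *Angpt1* (0.10 to 0.24) kept positive ones. *Figf* turned from -0.14 to 0.11 without the second *Foxf2-/-* embryo, and was -0.40 without the first.

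Over all genes tested, limma called 26 genes. It called 9 without a filter, 7 with entries of at least 200 bases, 86 with a separate mean for each control genotype, and 0 with the number of null alleles as a linear term. With single embryos left out the number ranged from 0 to 58: 54 without the *Foxf2+/+* embryo, 14 without the *Foxf2+/-* embryo, and 58 and 0 without the first and the second *Foxf2-/-* embryo. The 1.5-fold criterion called 184 genes, 775 without a filter, 352 with a filter of 1 FPKM, and 47 with entries of at least 200 bases. With single embryos left out it called 171 to 443, with the highest number without the *Foxf2+/-* embryo and 334 without the *Foxf2+/+* embryo. A fit without 1 embryo assumes that a lone embryo varies like the other arm. The cause of these shifts was not tested, beyond the fewer genes and embryos that enter a fit. No paired analysis was possible because the controls are single embryos of different genotypes without replicate numbers. The lack of read numbers limits *Flt1*, *Kdr*, *Tek* and *Angpt2* most.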

Other observations

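*Egln3*, a prolyl hydroxylase that marks Hif proteins for breakdown, is also in the list of genes that respond to low oxygen. This gene was noticed after its values were seen. It was at 0.999 FPKM in the wild-type embryo, 0.983 in the heterozygote, and 2.17 and 1.89 in the mutants, 1.93-fold and 1.96-fold above the controls on the log2(FPKM + 0.1) scale. It was below the filter and was not tested. *Thbs1*, which encodes an inhibitor of vessel growth, had the largest positive difference of the tested pathway genes and was likewise noticed by its value. It measured 7.70 and 8.22 FPKM in the control pair, against 11.5 and 11.02 in the mutant pair, a log2 difference of 0.49 (limma, adjusted p = 0.318), and it did not pass 1.5-fold against either control. *Angptl1*, an angiopoietin-like gene, had the largest negative difference of that list, and was at 15.4 FPKM in the wild-type embryo, 9.77 in the heterozygote, and 8.37 and 8.73 in the mutants (log2 difference -0.52, limma adjusted p = 0.437). Its *Foxf2+/-* value lay closer to the mutants than to the wild-type embryo.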
